A study of Rattus norvegicus with 6 samples.

Results

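The levels of 9 circadian clock genes (Bmal1, Per2, Per3, Nr1d1, Nr1d2, Dbp, Tef, Nfil3 and Usp2) were examined in rat kidney transplants. Each gene was found by its symbol in the platform's probe annotation and had 1 probe, so that 9 of the 26857 probes on the array are described, and all 9 passed the filter on dim signals that left 20142 probes. The genes were picked because earlier results of these same arrays showed them to differ between the groups, so their differences between the groups are given as a description and without a test. RNA came from 3 tolerated allogeneic and 3 syngeneic grafts removed on day 100 after transplantation, with 1 array per graft sample. Tolerated grafts were LEW.1W kidneys (MHC haplotype RT1u) carried by LEW.1A rats (haplotype RT1a) in which tolerance had been induced with antibodies against donor class II molecules. In the syngeneic group both the kidney and the rat that carried it were LEW.1A, with no such mismatch. Per the labels' protocols, donor organs of the allogeneic grafts had an age of 8 to 12 weeks, and the allograft recipients lost their native kidneys on day 7. Neither is stated for the syngeneic group, so whether the groups also differed in these is not known. The 2 strains share their genes outside the MHC, and the donor's haplotype, the mismatch and the antibody differed together between the groups, so these cannot be told apart. The labels give the day but not the hour at which the organs were taken, and they do not state that each sample was from a different animal.

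In mammals the clock is a loop of transcription that turns once a day in nearly every cell, the cells of kidney tubules included. BMAL1 and CLOCK bind as a pair to E-boxes and switch on the genes of their own repressors, the PER and CRY proteins, and of REV-ERB alpha and beta (Nr1d1 and Nr1d2), which in turn hold down Bmal1 through RORE sites. The transcription factors DBP and TEF, also under E-box control, activate genes with D-boxes, where NFIL3 acts as a repressor, and in rodent tissues Dbp, Per3 and Nr1d1 peak at times of day when Bmal1 is low.

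The promoters show which of these sites lie near the start of each gene. Windows of 300 bases, from 250 before to 50 after the start, were taken from RefSeq (assembly GRCr8) for all 9 genes, and Nr1d1 had 2 of them. Both strands were searched for the E-box CACGTG, the related CACGTT, the D-boxes TTATGTAA and TTACGTAA, and the RORE (the element that REV-ERB proteins bind, in capitals in the Bmal1 window), and no match in the 9 genes overlapped another. The windows that held a match are printed 5′ to 3′ on the strand of the gene, with the matches in capitals, because they place the loop's 3 kinds of site in genes whose levels are described. They are the windows of Bmal1 (chr1:176766078-176766377, plus strand), Per2 (chr9:99496944-99497243, minus strand), Tef (chr7:115206577-115206876, plus strand) and Nr1d1 (chr10:84229405-84229704 and chr10:84231763-84232062, minus strand).
Bmal1: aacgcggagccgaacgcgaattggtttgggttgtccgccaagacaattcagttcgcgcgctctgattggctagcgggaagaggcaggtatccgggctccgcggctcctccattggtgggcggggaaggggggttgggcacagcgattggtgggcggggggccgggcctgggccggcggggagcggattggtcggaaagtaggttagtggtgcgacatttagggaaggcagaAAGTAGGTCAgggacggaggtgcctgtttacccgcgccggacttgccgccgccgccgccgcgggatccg
Per2: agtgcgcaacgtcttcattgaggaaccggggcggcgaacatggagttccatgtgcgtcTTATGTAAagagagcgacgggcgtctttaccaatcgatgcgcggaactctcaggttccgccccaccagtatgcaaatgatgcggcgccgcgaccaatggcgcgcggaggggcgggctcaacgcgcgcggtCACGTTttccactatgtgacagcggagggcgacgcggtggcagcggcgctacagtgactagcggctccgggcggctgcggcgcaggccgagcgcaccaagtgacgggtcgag
Tef: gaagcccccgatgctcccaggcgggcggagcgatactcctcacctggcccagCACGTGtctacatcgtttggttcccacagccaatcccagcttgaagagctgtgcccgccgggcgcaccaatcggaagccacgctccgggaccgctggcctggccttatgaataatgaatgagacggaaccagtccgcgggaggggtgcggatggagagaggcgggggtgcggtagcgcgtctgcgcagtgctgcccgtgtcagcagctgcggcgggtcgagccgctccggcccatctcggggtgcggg
Nr1d1, first window: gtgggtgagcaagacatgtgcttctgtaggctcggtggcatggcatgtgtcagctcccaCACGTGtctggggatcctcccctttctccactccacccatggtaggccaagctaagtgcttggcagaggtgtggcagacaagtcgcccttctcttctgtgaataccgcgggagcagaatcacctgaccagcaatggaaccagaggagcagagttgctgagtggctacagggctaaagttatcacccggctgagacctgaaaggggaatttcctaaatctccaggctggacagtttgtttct
Nr1d1, second window: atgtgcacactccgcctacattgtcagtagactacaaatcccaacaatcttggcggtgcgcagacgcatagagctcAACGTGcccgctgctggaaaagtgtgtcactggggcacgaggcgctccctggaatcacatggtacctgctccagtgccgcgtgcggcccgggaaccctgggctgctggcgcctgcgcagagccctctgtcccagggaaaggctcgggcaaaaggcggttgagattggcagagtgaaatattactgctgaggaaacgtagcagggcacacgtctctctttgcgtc

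The RORE was found in Bmal1 alone among the 9 genes, 19 bases before its start, against 0.856% of all 27457 genes with a window. Per2 held both a D-box, 192 bases before its start, and CACGTT, 62 bases before it. A D-box was found in 1.09% of all genes and CACGTT in 5.30%, and its reverse complement also stood in the second Nr1d1 window, 174 bases before that start. The E-box CACGTG was found in Tef, 198 bases before its start, and in the first Nr1d1 window, 191 bases before the start, against 7.08% of all genes. In the windows of Dbp, Nr1d2, Per3, Usp2 and Nfil3 none of these letters occurred. A match is a description of the sequence and not a measured binding site.

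Of the 9 genes, 7 (Dbp, Tef, Nr1d1, Nr1d2, Per2, Per3 and Usp2) had a lower mean level in tolerated than in syngeneic grafts and 2 (Bmal1 and Nfil3) had a higher one. For 8 of the 9 the 3 values of 1 group lay apart from those of the other, which was so for 47.3% of all tested probes (23.1% higher and 24.1% lower in tolerated grafts). In the fit across all probes (limma, Benjamini-Hochberg adjusted p under 0.05) the same 8 lay past the threshold, 7 as lower and 1 as higher. The whole array had 25.2% of its tested probes past that threshold, 12.4% as higher and 12.8% as lower, and 32.7% of the 4955 named genes tested, 15.5% as higher and 17.2% as lower. Since the genes were picked on this contrast, nothing is read from their count. Levels are quantile-normalised log2 intensity and can be compared between arrays for 1 gene but not between genes. In these pieces of whole tissue, fewer cells of a type and less RNA per cell cannot be told apart.

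**Figure D1:**
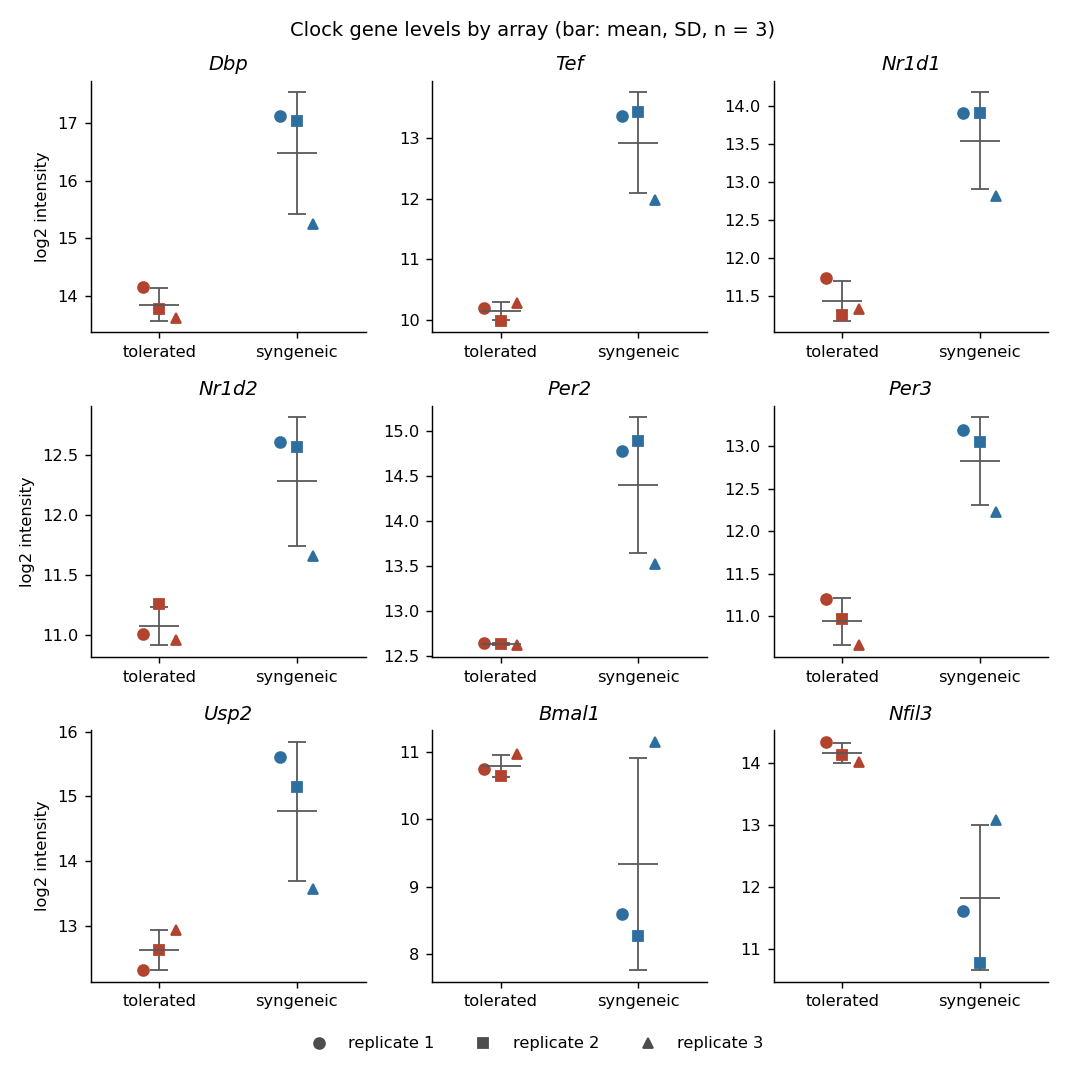
Log2 intensity (vertical axis, a separate scale for each gene) of the 9 clock genes in tolerated (left) and syngeneic (right) grafts, with 1 point per array, the symbol giving the replicate number, and bars for the mean and SD (n = 3). Syngeneic replicate 3 (triangle) lies between the tolerated arrays and the other syngeneic arrays for 8 genes, and above all other arrays for Bmal1.

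The loop's activator, Bmal1, had log2 levels of 10.74, 10.65 and 10.97 in tolerated replicates 1, 2 and 3 and of 8.60, 8.28 and 11.14 in syngeneic replicates 1, 2 and 3. The tolerated arrays lay within 0.32 of each other, while syngeneic replicate 3 was the highest of all 6 arrays and the other syngeneic arrays were the lowest, so that the groups overlapped. The mean was 10.78 ± 0.17 in tolerated grafts and 9.34 ± 1.57 in syngeneic grafts (± SD over 3 arrays of a group, here and for the genes that follow), a log2 difference of 1.45 ± 0.76 (SE). Bmal1 was the member that stayed short of the threshold. Its difference was 2.33 without syngeneic replicate 3, 5.03-fold in place of 2.72-fold, and 0.94 without syngeneic replicate 2.

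Among the period genes, whose proteins repress BMAL1 and CLOCK, Per2 had 12.64, 12.63 and 12.61 in tolerated replicates 1, 2 and 3 and 14.77, 14.89 and 13.52 in syngeneic replicates 1, 2 and 3. The tolerated values were nearly equal, and each lay under every syngeneic value. Mean levels of Per2 were 12.63 ± 0.02 in tolerated and 14.39 ± 0.76 in syngeneic grafts, a difference of -1.77 ± 0.38 (3.40-fold lower). Per3, a period gene that the loop can run without in mice, had 11.20, 10.96 and 10.66 in tolerated replicates and 13.18, 13.05 and 12.23 in syngeneic replicates. Again no tolerated value reached the lowest syngeneic one, that of replicate 3. The difference of Per3 was -1.88 ± 0.31 (3.69-fold lower), with means of 10.94 ± 0.27 in tolerated and 12.82 ± 0.52 in syngeneic grafts.

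The repressors of the second loop were both lower in tolerated grafts. Nr1d1, which encodes REV-ERB alpha, had 11.73, 11.25 and 11.32 in tolerated replicates 1, 2 and 3 and 13.91, 13.92 and 12.81 in syngeneic replicates 1, 2 and 3. Syngeneic replicates 1 and 2 were nearly equal, and replicate 3 stood at -1.10 relative to their mean, above all tolerated values. The difference of Nr1d1 was -2.11 ± 0.35 (4.32-fold lower), with means of 11.43 ± 0.26 in tolerated and 13.55 ± 0.64 in syngeneic grafts. Nr1d2, its paralog REV-ERB beta, had 11.00, 11.25 and 10.95 in tolerated replicates and 12.60, 12.56 and 11.66 in syngeneic replicates. The order of the arrays was the same kind, with all tolerated values under syngeneic replicate 3 and that array under the other 2. Nr1d2 differed least of the 7 lower genes, by -1.21 ± 0.30 (2.31-fold lower), with means of 11.07 ± 0.16 in tolerated and 12.28 ± 0.53 in syngeneic grafts.

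Of the factors that act on D-boxes, the activator gene Dbp had 14.17, 13.77 and 13.62 in tolerated replicates 1, 2 and 3 and 17.12, 17.04 and 15.25 in syngeneic replicates 1, 2 and 3. The groups did not overlap, and syngeneic replicate 3 lay nearer to the tolerated arrays than to the other syngeneic ones. The difference of Dbp was -2.62 ± 0.54 (6.14-fold lower), with means of 13.85 ± 0.28 in tolerated and 16.47 ± 1.06 in syngeneic grafts, and 9.37-fold lower without syngeneic replicate 3. Tef, a second activator of the same family, had 10.19, 9.98 and 10.27 in tolerated replicates and 13.37, 13.43 and 11.97 in syngeneic replicates. Tef had the largest difference in size of the 9 genes, -2.78 ± 0.42 (6.85-fold lower), with means of 10.15 ± 0.15 in tolerated and 12.92 ± 0.83 in syngeneic grafts. Nfil3, which encodes the repressor at D-boxes and is also needed by lymphoid cells, had 14.34, 14.12 and 14.01 in tolerated replicates and 11.60, 10.77 and 13.08 in syngeneic replicates. It ran the other way from Dbp and Tef, with every tolerated value above every syngeneic one and syngeneic replicate 3 the highest of its group. The difference of Nfil3 was 2.34 ± 0.58 (5.06-fold higher), with means of 14.16 ± 0.17 in tolerated and 11.82 ± 1.17 in syngeneic grafts, and 7.77-fold without syngeneic replicate 3.

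Usp2, which encodes a deubiquitinating enzyme made with a daily rhythm in many rodent tissues and known to act on clock proteins in mice, had 12.31, 12.62 and 12.93 in tolerated replicates 1, 2 and 3. In syngeneic replicates 1, 2 and 3 it had 15.61, 15.14 and 13.56. All tolerated values lay under the lowest syngeneic one, that of replicate 3. The difference of Usp2 was -2.15 ± 0.55 (4.44-fold lower), with means of 12.62 ± 0.31 in tolerated and 14.77 ± 1.08 in syngeneic grafts, and 6.74-fold lower without syngeneic replicate 3.

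The spread within the groups was unequal. A choice by the difference between groups also depends on this spread, so it and the place of single arrays are given as a description of these 9 genes. The SD of the log2 level ranged from 0.02 to 0.31 in tolerated and from 0.52 to 1.57 in syngeneic grafts, and it was larger in syngeneic grafts for all 9 genes, as it was for 58.2% of all tested probes. The median SD of the 9 genes was 0.17 in tolerated and 0.83 in syngeneic grafts, and over all tested probes it was 0.26 in tolerated and 0.33 in syngeneic grafts. In the syngeneic group replicate 3 lay apart. For all 7 lower genes that array was the lowest of its group, and for both Bmal1 and Nfil3 the highest. With Bmal1 and Nfil3 turned in sign, the mean deviation of the 9 genes from their group's mean was 0.05, -0.01 and -0.04 in tolerated replicates 1, 2 and 3, and 0.48, 0.55 and -1.03 in syngeneic replicates 1, 2 and 3. All 9 genes had the same sign of this deviation within each syngeneic array. Deviations cancel out within a group, so those of replicates 1 and 2 largely mirror that of replicate 3. The signs therefore mainly describe replicate 3, and they were not counted over all probes. In tolerated replicates 1, 2 and 3, 6, 5 and 3 of the 9 deviations were positive.

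**Figure D2:**
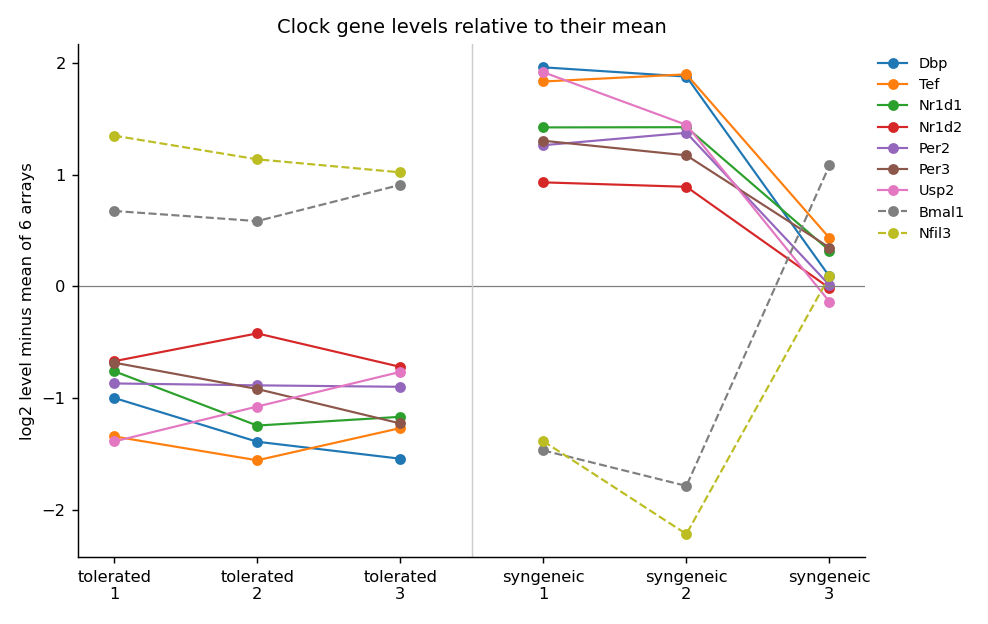
Log2 level of each clock gene minus its mean over the 6 arrays (vertical axis), by array, tolerated grafts on the left; solid lines are the 7 genes lower in tolerated grafts, dashed lines Bmal1 and Nfil3, and lines join the values of 1 gene, not an order of replicates. In syngeneic replicates 1 and 2 the 7 solid lines lie above 0 and the 2 dashed lines below it, and in syngeneic replicate 3, where Bmal1 is at its highest, the other 8 lie nearer to 0.

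Syngeneic replicate 3 also stood nearer to the tolerated grafts over the array as a whole. On the first principal component, which held 63.2% of the variance, it lay at -32.5, against 72.4 to 96.2 for the tolerated arrays and -107.1 and -104.4 for the other syngeneic arrays. Its place for each gene can be given as the share of the way from the mean of syngeneic replicates 1 and 2 (0%) to the tolerated mean (100%). Over the 6241 tested probes for which those 2 means lay at least 1 log2 unit apart, the median share was 40.1%, with quartiles of 19.5% and 60.9%. The 9 clock genes had a median of 59.4%. Per3, Tef and Nr1d1 lay closest to the median of all probes, at 40.9%, 44.0% and 44.4%. Dbp, Per2, Nr1d2, Nfil3 and Usp2 lay between 56.7% (Dbp) and 65.9% (Usp2). Bmal1, at 115%, was past the tolerated mean, and 95.7% of those probes had a smaller share.

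The number of the 9 genes past the threshold depended on the arrays used. It was 9 without syngeneic replicate 3, Bmal1 being added, and 3 (Tef, Nr1d1 and Per3) when either replicate 1 was left out. It was 2 (Tef and Per3) without tolerated replicate 2 or 3, and 1 (Tef) without syngeneic replicate 2. The share of all tested probes past the threshold moved as well, between 7.99% without syngeneic replicate 2 and 30.0% without syngeneic replicate 3. The sign of each gene's difference was the same in all 6 of these fits, as the plot of differences with 1 array left out shows.

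**Figure D3:**
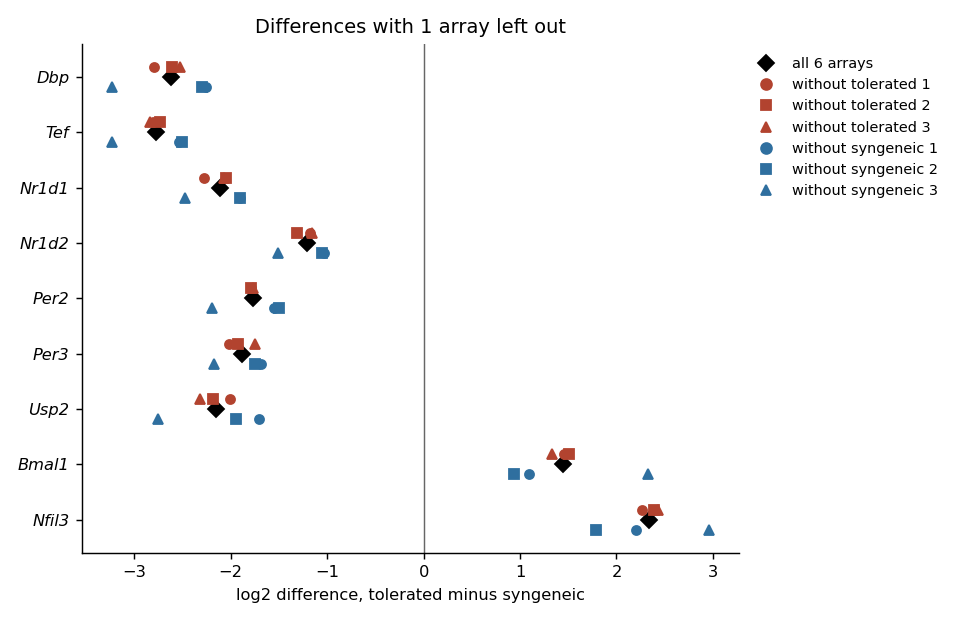
Log2 difference of each clock gene (horizontal axis, tolerated minus syngeneic) with all 6 arrays (black diamond) and with each array left out in turn (red, a tolerated array; blue, a syngeneic array; the symbol gives the replicate number). The fit without syngeneic replicate 3 gives the largest size for each of the 9 genes, for example 2.33 in place of 1.45 for Bmal1.

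The rest of the clock was covered in part by named probes. Of 13 further genes of the loop, 5 had a named probe and 4 passed the filter. With all arrays none of the 4 passed the threshold in limma, with 1 at an unadjusted p under 0.05. That gene was Bhlhe40, an E-box repressor, with 13.20, 13.05 and 12.79 in tolerated replicates 1, 2 and 3 and 13.89, 14.28 and 13.50 in syngeneic replicates 1, 2 and 3. Its groups did not overlap, and its difference was -0.88 ± 0.25 (limma adjusted p = 0.0513). It passed without syngeneic replicate 3 (-1.07, adjusted p = 0.0238). Bhlhe40 also passed with arrays scaled to equal medians, an offset of 50, normexp, the filter at the median of all probes or array weights. The cryptochrome gene Cry1, a repressor like the period genes, had means of 12.79 ± 0.22 in tolerated and 12.50 ± 0.21 in syngeneic grafts, a difference of 0.29, whose 95% interval ran from -0.19 to 0.78 (adjusted p in limma 0.324). Cry2 had -1.04 ± 0.47 (limma adjusted p = 0.163), or -1.52 and past the threshold with tolerated replicate 3 left out (adjusted p = 0.0379), and the second E-box repressor gene Bhlhe41 had 0.20 ± 0.33 (adjusted p = 0.690). Clock itself, the partner of Bmal1, was too dim for the test, at 7.76 ± 0.35 in tolerated and 7.66 ± 0.76 in syngeneic grafts. Per1, Npas2, Hlf, Ciart and Bmal2 were among the genes without a named probe and are not analysed here.

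Among 16 kinases, ubiquitin ligases and other modifiers of the clock, 11 were tested, of which 1 rose and 1 fell, and the median difference was 0.24. Timeless, named after a fly clock gene and known in mammals for its part in DNA replication, rose, with 11.85, 12.21 and 11.94 in tolerated replicates 1, 2 and 3 and 9.94, 10.68 and 10.68 in syngeneic replicates 1, 2 and 3. Every tolerated value of Timeless lay above every syngeneic one, its difference was 1.57 ± 0.26 (limma adjusted p = 0.0131), and it passed with any 1 array left out (adjusted p up to 0.0488). Prkaa2, a catalytic subunit of the energy sensor AMPK, which marks CRY1 for breakdown in mice, fell by 2.11 ± 0.48 on the log2 scale (adjusted p = 0.0282). Prkaa2 passed without syngeneic replicate 3 and missed the threshold without any 1 of the other 5 arrays (adjusted p up to 0.0883). Its paralog Prkaa1 had 0.88 ± 0.45 (limma adjusted p = 0.208), and with syngeneic replicate 1 left out it passed at 1.39 (adjusted p = 0.0438).

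The casein kinase genes Csnk1d and Csnk1e, whose enzymes mark PER proteins for breakdown, had 0.24 ± 0.18 and 1.35 ± 0.45 (limma adjusted p = 0.375 and 0.0802). Csnk2a1, a catalytic subunit of casein kinase 2, had -0.05 ± 0.21, the kinase gene Gsk3b had 0.45 ± 0.23, and Btrc, of a ligase that acts on PER proteins, had -0.56 ± 0.24. Crem, a cAMP-responsive repressor, and Nono, a PER-binding protein, had -0.72 ± 0.24 and 0.60 ± 0.22, and each passed without syngeneic replicate 3 (adjusted p = 0.0464 and 0.0498). Id2, an inhibitor of helix-loop-helix factors, had -0.32 ± 0.17. Of the 15 tested genes of loop and modifiers together, 2 (13.3%) passed, beside the 32.7% of all named genes. That count was 1 in the fits that left out tolerated replicate 1, tolerated replicate 2 or syngeneic replicate 2, and 5 in the fit that left out syngeneic replicate 3.

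**Figure D4:**
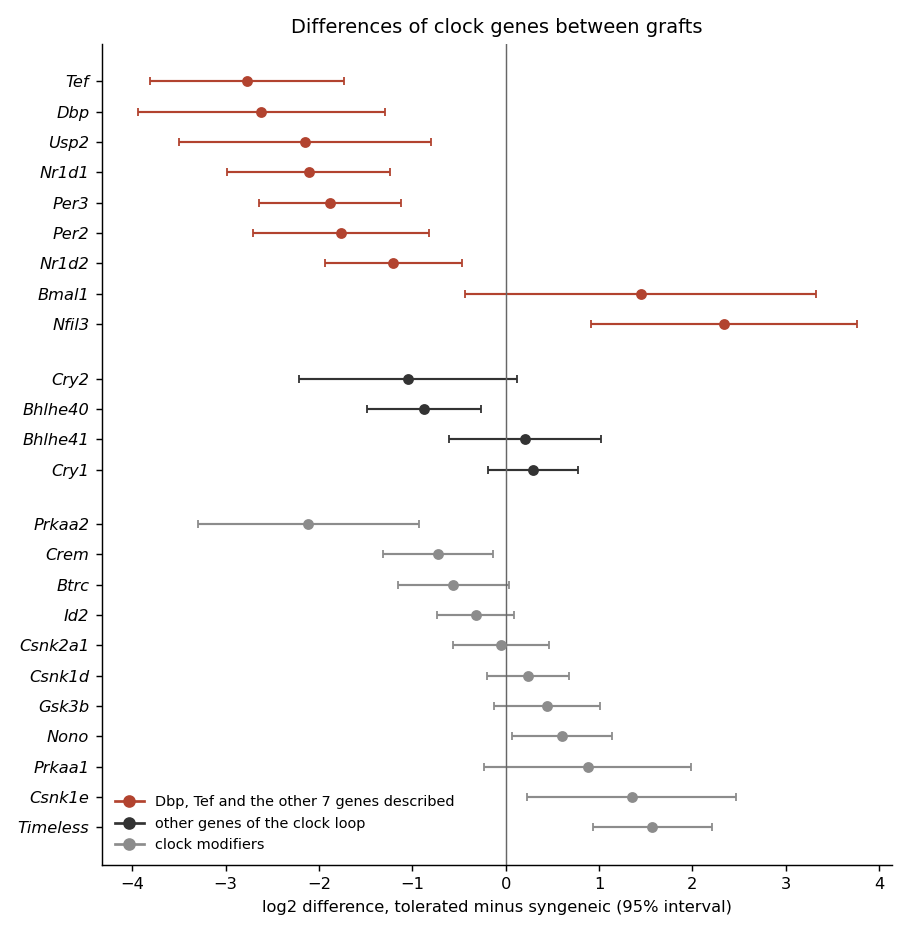
Log2 difference, tolerated minus syngeneic (horizontal axis), with its 95% interval from the fit across all probes, for the 9 clock genes (red), the 4 other tested loop genes (dark) and the 11 tested modifiers (grey). The intervals of Timeless and Prkaa2 lie apart from 0 on opposite sides, and that of Cry1 spans -0.19 to 0.78.

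Genes under clock control in rodent tissues were changed in both directions. Of 21 listed, 12 were tested, 2 rose and 4 fell (50%, beside 32.7% of all named genes), and the median difference was -0.70, beside -0.04 over all named genes tested. Klf9, a transcription factor gene driven by the clock and by glucocorticoids, had means of 15.74 ± 0.27 in tolerated and 16.83 ± 0.35 in syngeneic grafts, a difference of -1.10 ± 0.25 (limma adjusted p = 0.0281). Alas1, the first enzyme of haem synthesis and a target of the DBP family in mouse liver, fell by 1.03 ± 0.21 on the log2 scale (adjusted p = 0.0216). Herpud1, of protein quality control in the endoplasmic reticulum, and Coq10b, of coenzyme Q function, were the other 2 that fell, by 0.87 ± 0.20 and 0.96 ± 0.21 (limma adjusted p = 0.0296 and 0.0255). The increases were those of Nampt, the rate-limiting enzyme of NAD salvage and an E-box target in mice, with 1.04 ± 0.17 (adjusted p = 0.0124), and of Pparg, a nuclear receptor gene, with 1.49 ± 0.38 (adjusted p = 0.0377). Nampt had 14.96 ± 0.17 in tolerated and 13.93 ± 0.12 in syngeneic grafts and did not pass without tolerated replicate 3 or with arrays scaled to equal medians (0.77, adjusted p = 0.0576). The number of listed genes past the threshold was 6 without syngeneic replicate 3, 2 without syngeneic replicate 1 and 1 without any 1 of the other 4 arrays. Klf9, Herpud1 and Coq10b passed in 1 of these 6 fits, that without syngeneic replicate 3, Pparg in 1, that without syngeneic replicate 1, and Alas1 in 2.

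Of 15 tested kidney transport and hormone genes with a daily rhythm in rodents, 1 rose and 1 fell (13.3%, beside 32.7% of all named genes). Their median difference was -0.14. The junction gene Cldn4 rose by 1.75 ± 0.24 (limma adjusted p = 0.0082) and passed with any 1 array left out. The sodium-hydrogen exchanger gene Slc9a3, a proximal tubule gene known as a clock target in rodents, fell by 2.01 ± 0.37 on the log2 scale (adjusted p = 0.0169). It missed the threshold without tolerated replicate 2 or syngeneic replicate 1 or 2 (adjusted p up to 0.0628). Of the 2 tested genes listed as controlled through ROREs, Cry1 has the values already given, and G6pc1, the last enzyme of glucose production, fell by 4.63 ± 0.81 (adjusted p = 0.0146), with 9.83, 9.52 and 9.94 in tolerated replicates 1, 2 and 3 and 15.86, 14.71 and 12.60 in syngeneic replicates 1, 2 and 3. G6pc1 is also a proximal tubule gene, and it passed without syngeneic replicate 1 (-3.87) or 3 (-5.50) but missed the threshold without any 1 of the other 4 arrays (adjusted p up to 0.0573).

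Glucocorticoids and body temperature both set the phase of peripheral clocks, so lists of their responsive genes were read as well. Of 8 tested genes listed as glucocorticoid-induced, the receptor gene Nr3c1 counted among them, 1 rose and 2 fell (37.5%, beside 32.7% of all named genes). The median difference was 0.13, which turned to -0.25 with arrays scaled to equal medians, -0.03 with array weights and -0.05 without syngeneic replicate 3. Pck1, a gluconeogenic enzyme gene of the proximal tubule, fell by 5.42 ± 0.34 (limma adjusted p = 0.00363), and Klf9, already described, was the other that fell. Tsc22d3, which encodes the glucocorticoid-induced leucine zipper, rose by 0.60 ± 0.15 (adjusted p = 0.0355), but missed the threshold in all 6 fits with 1 array left out (adjusted p up to 0.103) and with arrays scaled to equal medians (0.26, adjusted p = 0.312). Fkbp5 had 0.43 ± 0.32 and the glucocorticoid receptor gene Nr3c1 0.03 ± 0.16. Of 5 temperature-responsive genes tested, the small heat shock protein gene Hspb1 rose by 1.07 ± 0.15 (limma adjusted p = 0.00969), while the chaperone genes Hsph1 and Hspa8 fell by 1.04 ± 0.20 and 0.65 ± 0.15 (adjusted p = 0.0182 and 0.0296). Hspb1 passed with any 1 array left out, but not with arrays scaled to equal medians (0.72, limma adjusted p = 0.0542) or with the replicate block (adjusted p = 0.0519). Hsph1 passed without tolerated replicate 3 or syngeneic replicate 3 and Hspa8 without syngeneic replicate 3, and neither passed in the other such fits. With all arrays 60% of the 5 tested genes of this list passed, beside 32.7% of all named genes. The median of this list was 0.32, and -0.21 with arrays scaled to equal medians.

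Marker transcripts of several cell types differed between the groups, and those of others mostly did not pass the test. Of all named genes tested, 32.7% passed. Of 16 proximal tubule genes tested 15 fell, with a median of -2.88, among them Pck1, Fbp1, G6pc1 and Slc22a6. The summed normalised intensity of that list was 500383 to 712968 in tolerated and 4385310 to 7130330 in syngeneic grafts. All 11 macrophage and dendritic cell genes tested rose (median 2.99), led by Fcgr2b, Fcgr3a, C1qc and C1qa, with sums of 2780680 to 3057460 in tolerated and 242393 to 890971 in syngeneic grafts. Of these 11, 5 passed without tolerated replicate 1 or 3, and 7 without tolerated replicate 2 or syngeneic replicate 2. Of T cell genes 6 of 8 rose (median 2.39), led by Cd2, Cd8b, Zap70 and Cd3d, with sums of 38652.5 to 57558.4 in tolerated and 6102.43 to 20649.1 in syngeneic grafts, and all 5 fibroblast genes rose (median 2.93), led by Col1a2, Fn1, Lum and Dcn. The T cell count was 0 of 8 without any 1 of the tolerated arrays or syngeneic replicate 1, 1 (Cd8a) without syngeneic replicate 2, and 6 without syngeneic replicate 3. The fibroblast count was 2 of 5 without tolerated replicate 3 and 3 without tolerated replicate 2 or syngeneic replicate 1 or 2. Thick limb, distal tubule and collecting duct genes had 2 of 15 lower (Klk1 and Egf), podocyte genes 1 of 5 (Podxl), and liver transcripts 2 of 9 (Alb and Ttr). Podxl passed in 1 of the 6 fits with 1 array left out, that without syngeneic replicate 3 (adjusted p up to 0.110 in limma), and Ttr missed the threshold without tolerated replicate 2 or 3 or syngeneic replicate 2. None of 4 endothelial genes passed in limma (1, Flt1, at an unadjusted p under 0.05, with -0.94 ± 0.30, and Emcn next with -0.23 ± 0.24), nor did Cd79b, the B cell gene tested (3.82 ± 1.36, unadjusted p = 0.0315). Without syngeneic replicate 3 both Flt1 (-1.14, limma adjusted p = 0.0454) and Cd79b (5.31, adjusted p = 0.00776) passed, as they did with array weights. No probe on the array was at 0. The share of the way to the tolerated mean in syngeneic replicate 3 had a median of 18.9% for the proximal tubule genes, 45.3% for the macrophage and dendritic cell genes and 66.2% for the T cell genes, against 59.4% for the 9 clock genes. The part of these cell types in the clock gene differences was not tested.

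Named genes whose levels over the 6 arrays ran most like those of 3 members were found by the root mean square difference between log2 profiles, each centred on its own mean, among the other 4954 named genes tested. Nearest to Dbp were Ntf3, a neurotrophin gene, at 0.19, Slc25a10, the mitochondrial dicarboxylate carrier gene, at 0.23, and Galnt14, of protein glycosylation, at 0.24. Nearest to Nr1d1 were Pomc, the precursor gene of corticotropin, at 0.11, the membrane skeleton gene Epb41l3 at 0.12, and Ddah1, which breaks down an inhibitor of nitric oxide synthesis, at 0.14. Nearest to Bmal1 were Oprl1, the nociceptin receptor gene, at 0.24, the death receptor gene Fas at 0.33, and the interleukin receptor gene Il21r at 0.34. Like Bmal1, these last 3 were high in the tolerated arrays and in syngeneic replicate 3: Oprl1 had 9.57, 9.57 and 9.45 in tolerated replicates 1, 2 and 3 and 7.04, 6.49 and 9.62 in syngeneic replicates 1, 2 and 3. None of the other clock genes was among these 9 nearest profiles. Only the first 3 were kept for each member, and the measure counts the size of a change as well as its shape. The absence of clock genes therefore does not mean that their profiles were unlike each other.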

How the data were processed

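Gene expression was measured on Applied Biosystems rat genome survey arrays, 1 per sample, with 3 tolerated and 3 syngeneic grafts. The authors deposited raw probe intensity per array, with medians of 421 to 991, and a table of log2 values with a median of 9.36 in each array. Its columns rank the probes exactly as the raw intensities do. The sources used here do not give how the log2 values were made, the background subtraction or the build of the probe design. Raw intensities were taken to log2 (0 values lay under the floor of 1) and then quantile normalised. Probes with a mean level above the lower quartile (7.76) were tested with limma 3.58.1 in R 4.3.3 at a Benjamini-Hochberg adjusted p of 0.05, two-sided. Probes were named from the platform annotation, with 6104 holding 1 symbol, 70 several and 20683 none listed. Of the 6104, 6081 had an Entrez identifier found in RefSeq (GRCr8) and took its symbol there, whether or not it differed. Where a gene had several probes, the brightest was used.

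The genes described and the lists were chosen with earlier results of these data known. Named are the 9 clock genes, all tested genes of the loop and modifier lists, up to 4 changed genes with the largest difference per other list (or the 2 with the smallest p), and 3 nearest profiles each for Dbp, Nr1d1 and Bmal1. Herpud1, Coq10b, Fkbp5 and Nr3c1 were named after their values were seen. The fit was tested on simulated data. There, 18.8% of probes with a true log2 difference of 1 passed and 55.8% of those with a difference of 2, and 5.61% of calls were false. That simulation changed 38 to 48 tested probes at each size of difference, while 25.2% of the real probes passed. Its noise was also independent between probes, unlike arrays on which many probes shift together. These rates may therefore not hold for the real arrays. Genes that did not pass may still differ. Alternatives were median scaling, the deposited log2 values, an offset of 50, normexp, other filters, array weights, a replicate block and leaving out each array. With 6 arrays precision is limited, and p-values measure only the spread between these samples, which may be technical. Deviations of same-numbered arrays from their group means correlated at -0.002, 0.011 and 0.054 over tested probes, so the numbers were not taken as pairs.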

Additional observations from a re-analysis of the deposited data

How the results depend on the processing

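The differences of the 9 clock genes kept their sign under all alternatives run and moved by less than the spread between replicates. Leaving out 1 of 3 arrays can hardly move a group's mean by more than that spread. The filters and the replicate block do not change the difference at all. For these fits the small move was nearly fixed in advance, and nothing is read from it. The count of the 9 past the threshold was 8 with all arrays, 6 without a filter on dim probes, 9 with array weights, 1 to 9 with 1 array left out, and 4 with the replicate number as a block. Of all tested probes 5075 passed, and 1610 to 6046 with 1 array left out. With the replicate block, where same-numbered arrays did not deviate together, 1886 probes and 1 of the other clock genes passed. That count of other clock genes was 2 with all arrays, 4 with arrays scaled to equal medians, 5 with the filter at the median of all probes, 5 with array weights, and 1 to 5 with 1 array left out. The clock-controlled outputs had 6 past the threshold with all arrays and 0 under the block, which also left 2 of 8 T cell, 2 of 5 fibroblast and 0 of 5 podocyte genes. Without a filter on dim probes 1 T cell gene passed. Scaling to equal medians gave a median difference of -0.15 over all probes, in place of -0.02, and 37.5% of called probes as higher, in place of 49.1%. Searching only the 250 bases before the start left the number of the 9 genes with each motif as it was, while the shares of all genes became 6.18% (E-box), 4.47% (CACGTT), 1.00% (D-box) and 0.696% (RORE). No detection calls were in hand, so signal over background is not known.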
